A study of Homo sapiens with 8 samples.

Results

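The SMAD family is the set of proteins that carry signals of the TGF-β superfamily from receptors at the cell surface to genes in the nucleus. The genes SMAD1, SMAD2, SMAD3, SMAD4, SMAD5, SMAD6, SMAD7 and SMAD9 were taken by symbol from the expression tables, 8 of 30017 symbols. Of these, 7 had a mean of at least 1 TPM (transcripts per 1000000, a level per length) and were tested among 13141 genes, and SMAD9 was listed at 0 TPM in all 8 libraries.

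The receptor-regulated Smads are phosphorylated by activated type I receptors: Smad2 and Smad3 mainly by receptors for TGF-β and activin, and Smad1, Smad5 and Smad9 mainly by receptors for bone morphogenetic proteins (BMPs). They join Smad4, the common partner, enter the nucleus and bind DNA through the N-terminal MH1 domain (Smad2, in its usual form, binds poorly by itself). Smad6 and Smad7 are inhibitory Smads that act on receptors and on receptor-regulated Smads, and the SMAD7 gene is a known early target of TGF-β in epithelial cells.

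All 8 libraries were made from human A549 lung adenocarcinoma cells whose SMAD3 gene had been disrupted with a nickase pair (A549-S3KO), so the reference cells carry the knockout as well. Lentivirus gave one line a cDNA for wild-type Smad3 (wild-type cells) and the other a cDNA for Smad3(RA/KP) (RA/KP cells), which has the substitutions R104K and A105P within the β4 stretch of its MH1 domain. Each line was grown on collagen and sampled without TGF-β (0 ng/ml) or 8 h after addition of TGF-β at 1 ng/ml, with n = 2 libraries for each of the 4 groups, which the study describes as independent experiments. Infected cells were cloned by limiting dilution. The paper reports difficulty in obtaining clones with Smad3 at the endogenous level of parental A549 cells. The wild-type clone with the lowest Smad3 expression was therefore picked. The sequenced clones are not named, so that an effect of the Smad3 form and an effect of the clone cannot be told apart. No library came from unrescued A549-S3KO cells or from parental A549 cells.

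The libraries held 1.15 to 1.81 Gb of mapped bases, and the tables give no read counts, so intervals cover the spread between libraries and not counting error. Of 7 markers of the epithelial line, 6 were above 1 TPM on average, led by the keratin genes KRT7, KRT8 and KRT18, while KRT19 was listed at 0. The summed level of 5 alveolar type II markers was 0.998 to 3.37 TPM, with the surfactant genes at 0 and NAPSA at 0.998 to 3.37 TPM. That of 5 fibroblast markers was 1.14 to 5.61 TPM, with DCN at 0 and LUM at 0.33 to 5.19 TPM. The LUM range took in that of the epithelial marker EPCAM (1.40 to 3.95 TPM). For 4 endothelial markers the sum was 0 to 0.21 TPM. Of 5 leukocyte markers 4 were at 0, and CD68 made up the whole sum of 51.0 to 104 TPM. Untreated RA/KP replicate 2 stood apart in base composition: its deviations from the mean of all libraries fell with the GC content of the transcript (Spearman's rho -0.65 across 12402 genes, a description since genes are not independent), against 0.374 and 0.495 in the treated RA/KP libraries, the most positive of all, and -0.141 to 0.194 in the other 5.

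The codon pair for residues 104 and 105 of Smad3 is shown because these residues are the designed difference in the experiment. That difference lies in the lentiviral cDNAs, whose codons are not stated, and not in the SMAD3 gene of the cells. In the gene the pair lies at chr15:67164998-67165003 on the plus strand of GRCh38, in coding exon sequence (exon 2 of 9 in the GENCODE transcript used). The lines below give the reference genome from 5′ to 3′ on the coding strand for SMAD3 and for the aligned codons of the other receptor-regulated Smads, with those codons in capitals. The other positions are chr18:47869328-47869333 (minus strand, residues 144 and 145, exon 4 of 11) for SMAD2, chr4:145514923-145514928 (plus strand, residues 104 and 105, exon 2 of 7) for SMAD1, chr5:136154073-136154078 (plus strand, residues 105 and 106, exon 3 of 8) for SMAD5 and chr13:36879363-36879368 (minus strand, residues 108 and 109, exon 2 of 7) for SMAD9.
SMAD3: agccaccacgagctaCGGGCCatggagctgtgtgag
SMAD2: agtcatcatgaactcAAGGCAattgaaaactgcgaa
SMAD1: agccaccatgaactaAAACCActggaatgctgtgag
SMAD5: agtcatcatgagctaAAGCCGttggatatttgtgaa
SMAD9: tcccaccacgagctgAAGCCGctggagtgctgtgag

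Numbered from the first residue of Smad3, SMAD1, SMAD5 and SMAD9 each differ from SMAD3 in this pair by R104K and A105P, the same substitutions as in Smad3(RA/KP). SMAD2 differs from SMAD3 there by R104K alone. These are genome sequences, and none was read from the libraries.

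SMAD3, the gene that was disrupted and put back as a cDNA, was the most abundant family member by TPM in all 8 libraries. For replicates 1 and 2, its level was 158 and 187 TPM in untreated and 137 and 166 TPM in treated wild-type cells. It was 144 and 180 TPM in untreated and 168 and 169 TPM in treated RA/KP cells. The untreated groups overlapped, and the treated RA/KP libraries lay just above the higher treated wild-type library. In the fit by limma on log2(TPM + 1), untreated RA/KP cells differed from untreated wild-type cells by -0.09 (95% interval -0.44 to 0.26), and treated cells by 0.16 (-0.19 to 0.51). Averaged over both treatments the difference between the lines was 0.03 on the log2 scale (95% interval -0.21 to 0.28). In bulk RNA, fewer cells with a transcript and less of it per cell cannot be told apart, and gene totals do not separate transcripts of the cDNA from those of the disrupted locus (chr15:67065857-67195195, plus strand).

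TGF-β left SMAD3 without a called difference in either line. This total takes in transcripts of the lentiviral cDNA, so it does not show how the SMAD3 locus itself responds. The log2 difference was -0.19 (SE 0.15, adjusted p = 0.649) in wild-type cells and 0.07 (SE 0.15, adjusted p = 0.827) in RA/KP cells by limma. The treated-to-untreated TPM ratio of SMAD3 was 0.865 and 0.888 in the wild-type replicates, and 1.17 and 0.936 in the RA/KP replicates, which lay on both sides of 1.

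SMAD2, the other receptor-regulated Smad of the TGF-β branch, was far less abundant and less steady. It was at 5.60 and 6.12 TPM in untreated and 3.85 and 11.5 TPM in treated wild-type cells, and at 11.3 and 9.30 TPM in untreated and 4.65 and 4.07 TPM in treated RA/KP cells. The treated wild-type replicates thus spanned the whole range of the gene, while the RA/KP groups did not overlap. The fitted log2 difference with TGF-β was 0.19 (SE 0.37, adjusted p = 0.900 by limma) in wild-type and -1.07 (SE 0.37, adjusted p = 0.147) in RA/KP cells, and neither passed. The difference between these responses was -1.26 (95% interval -2.45 to -0.06, adjusted p = 0.881).

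The SMAD2 values depended on which column of the tables was read. The authors' tables give, beside TPM, the mean base coverage of each gene record, and the ratio of coverage to FPKM, taken relative to the highest ratio in the library, would be 1 for every gene if both had the same effective length. For SMAD2 this ratio was 0.376 in untreated RA/KP replicate 1, a library in which TPM was high, and 0.963 at its highest. Scaled to a sum of 1000000 per library, SMAD2 coverage was 5.04 and 10.6 in untreated and 5.12 and 4.65 in treated RA/KP cells, so that these groups overlapped on this scale. In wild-type cells the SMAD2 coverage was 5.23 and 5.96 in untreated and 4.38 and 5.95 in treated libraries, and treated replicate 2, high by TPM, was back among the others. The one SMAD2 value that stayed high by coverage, untreated RA/KP replicate 2, came from the library that stood apart in GC content. The longest GENCODE transcript of SMAD2 (34626 bases) has 40.3% GC, and a link with that composition was not tested. With the GC trend removed from each library, the TPM difference of SMAD2 in RA/KP cells was -0.73 (adjusted p = 0.363 by limma).

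**Figure D1:**
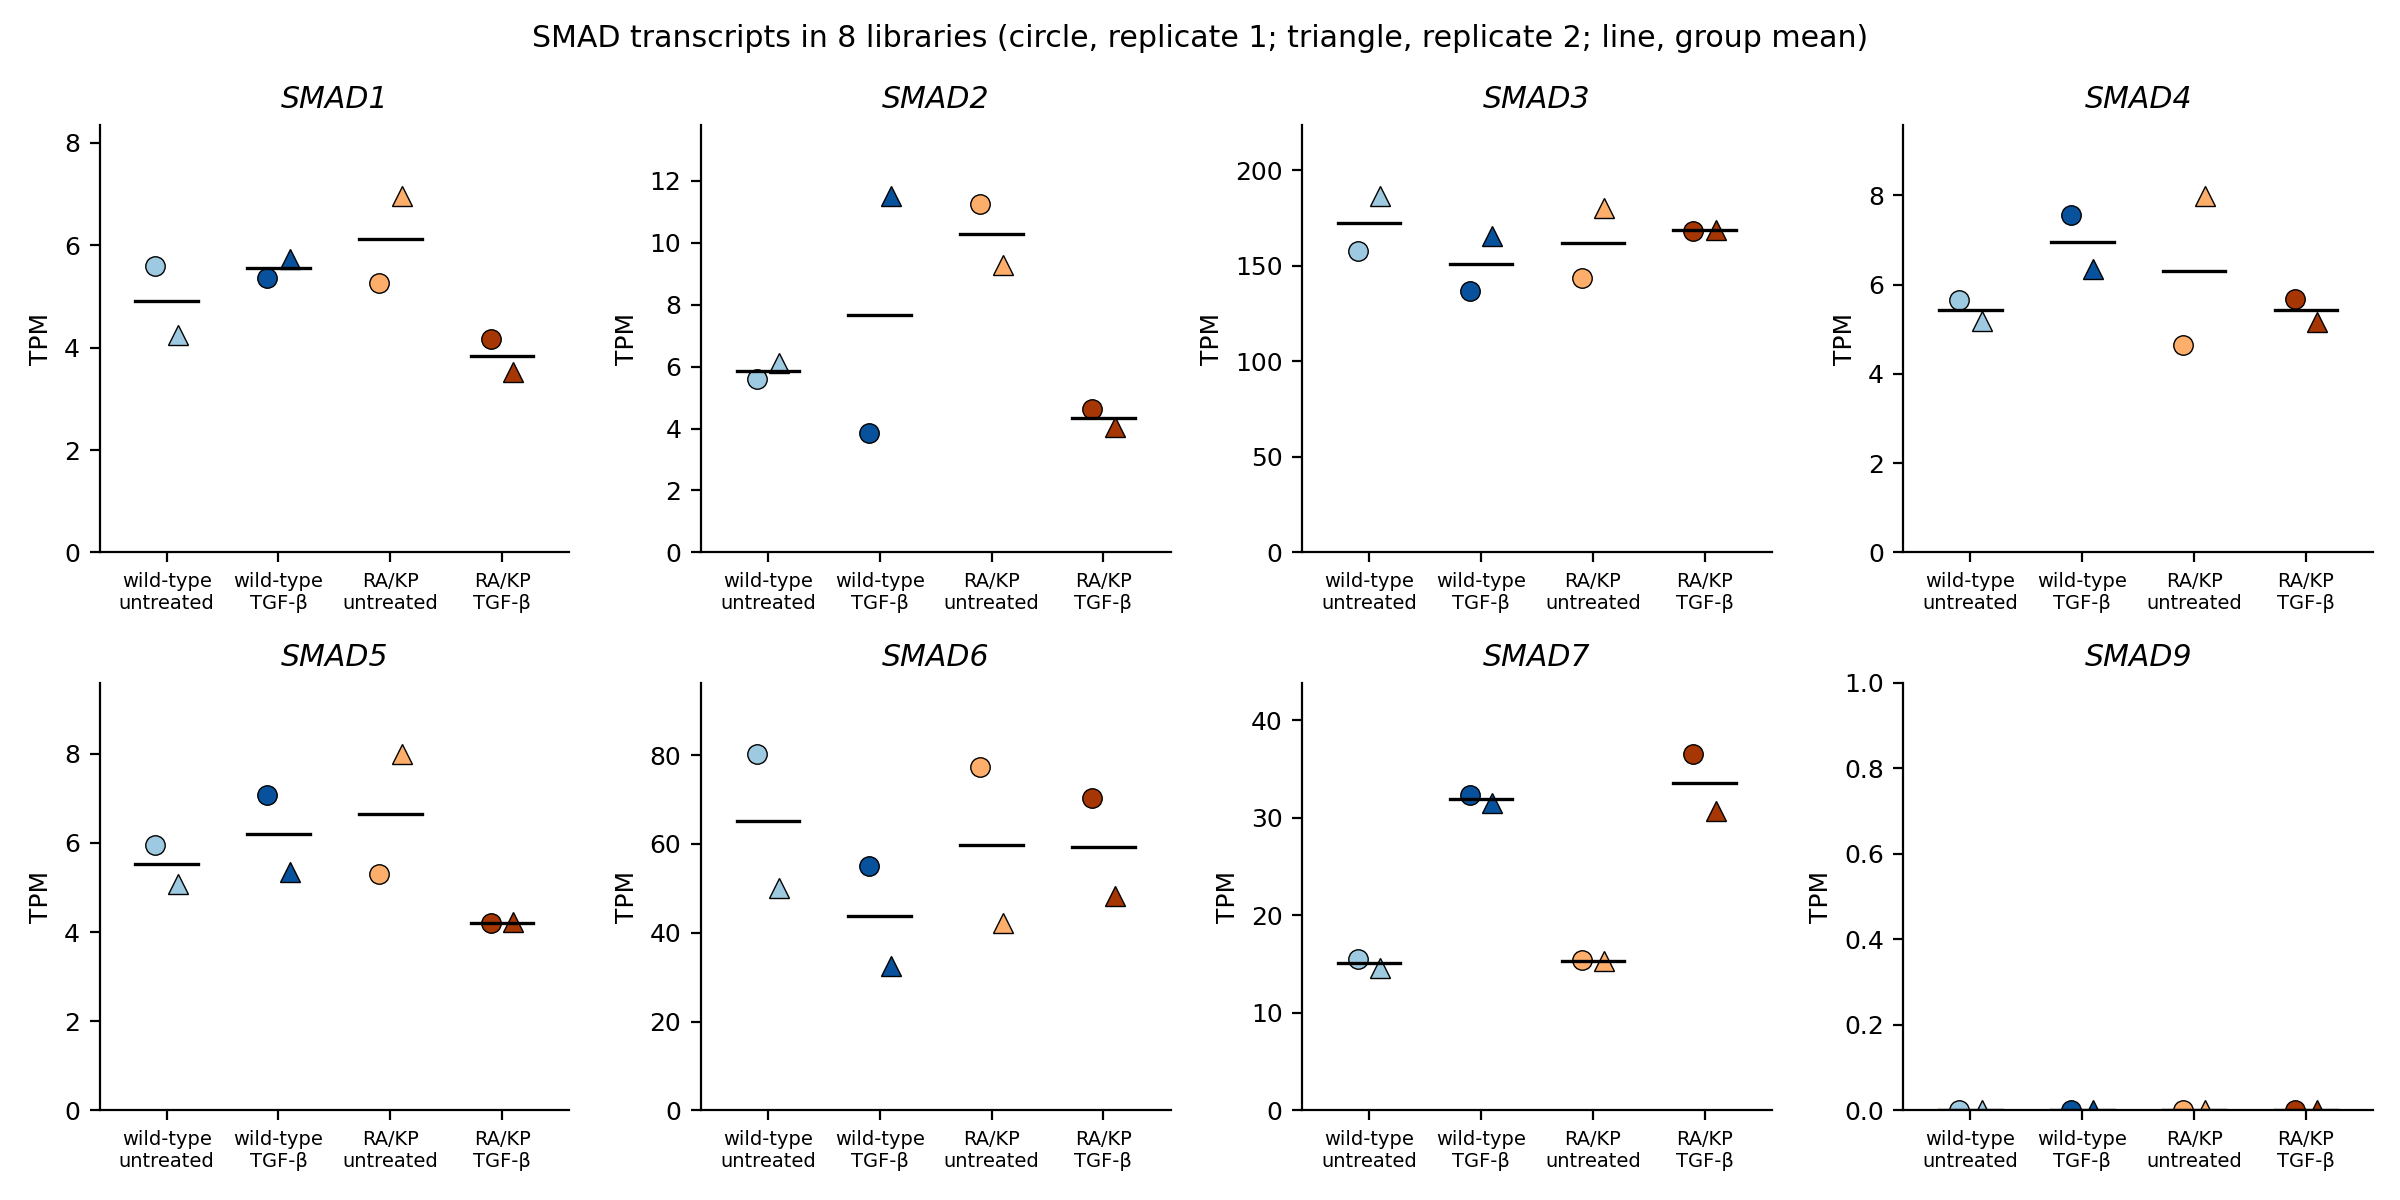
TPM (y axis, linear from 0, a separate scale for each gene) of the 8 SMAD genes in each library, with the 4 groups on the x axis. Circles are replicate 1, triangles replicate 2 and lines the mean of n = 2. The treated SMAD7 libraries (30.7 to 36.5 TPM) lie above the untreated ones (14.6 to 15.5 TPM) in both lines, SMAD6 is higher in replicate 1 in every group, and SMAD9 is at 0 throughout.

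SMAD1, a receptor-regulated Smad of the BMP branch, was at 5.60 and 4.24 TPM in untreated and 5.36 and 5.73 TPM in treated wild-type cells. It was at 5.27 and 6.97 TPM in untreated and 4.16 and 3.52 TPM in treated RA/KP cells. The wild-type groups overlapped and the RA/KP groups did not. With n = 2 libraries a group such separation says little by itself, here as for SMAD2, SMAD4 and SMAD5. The log2 difference was 0.15 (SE 0.25, adjusted p = 0.863 by limma) in wild-type and -0.55 (SE 0.25, adjusted p = 0.251) in RA/KP cells.

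SMAD5, of the same branch, was at 5.96 and 5.07 TPM in untreated and 7.08 and 5.34 TPM in treated wild-type cells, and at 5.31 and 7.99 TPM in untreated and 4.20 and 4.22 TPM in treated RA/KP cells. Its untreated and treated libraries overlapped in wild-type cells and were apart in RA/KP cells. The log2 differences with TGF-β were 0.14 (SE 0.27, adjusted p = 0.893 by limma) and -0.53 (SE 0.27, adjusted p = 0.280). SMAD1 and SMAD5 were both highest in untreated RA/KP replicate 2, the library of unusual base composition. Their longest GENCODE transcripts have 39.2% and 37.0% GC, and a link with that composition was not tested. With the GC trend removed from each library, the differences in RA/KP cells were -0.18 for SMAD1 (adjusted p = 0.561 by limma) and -0.13 for SMAD5 (adjusted p = 0.698). SMAD9, the last of the branch, was listed at 0 in every library.

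SMAD4, the partner that both branches share, ranged from 4.64 to 7.99 TPM over the 8 libraries, with both extremes in untreated RA/KP cells. It was at 5.66 and 5.19 TPM in untreated and 7.56 and 6.34 TPM in treated wild-type cells, groups that did not overlap. In treated RA/KP cells it was at 5.68 and 5.17 TPM, inside the range of the untreated ones. The log2 difference was 0.30 (SE 0.27, adjusted p = 0.696 by limma) in wild-type and -0.15 (SE 0.27, adjusted p = 0.776) in RA/KP cells.

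SMAD7, an inhibitory Smad that binds activated type I receptors, rose with TGF-β in both lines. In wild-type cells it went from 15.5 and 14.6 TPM to 32.3 and 31.5 TPM. In RA/KP cells it went from 15.4 and 15.3 TPM to 36.5 and 30.7 TPM. Every treated library lay above every untreated one, and untreated levels differed by less than 1 TPM across both lines. The treated-to-untreated ratio within a replicate was 2.08 and 2.15 in wild-type and 2.38 and 2.00 in RA/KP cells.

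The log2 difference of SMAD7 was 1.03 (SE 0.18, 95% interval 0.63 to 1.43, adjusted p = 0.0116 by limma) in wild-type and 1.08 (SE 0.18, 0.68 to 1.48, adjusted p = 0.0104) in RA/KP cells. The responses of the lines differed by 0.04 (95% interval -0.52 to 0.61, adjusted p = 0.972). SMAD7 was the 1 of 7 tested members that passed in wild-type cells, where 4.68% of all tested genes passed (2.94% as higher and 1.74% as lower), and again the 1 of 7 in RA/KP cells, where 4.98% passed (3.49% as higher and 1.5% as lower). Averaged over both lines its difference was 1.05 (SE 0.12, adjusted p = 0.000874), again the 1 member of 7, against 11.3% of all tested genes (6.22% as higher and 5.08% as lower). The SMAD7 call in wild-type cells was lost without untreated replicate 1 (adjusted p = 0.151) or 2 (0.145) and without treated replicate 1 (0.155) or 2 (0.177) of that line. The call in RA/KP cells was lost without treated replicate 1 (adjusted p = 0.0892) or 2 (0.0613), while the log2 differences stayed between 0.97 and 1.18.

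SMAD6, the inhibitory Smad known mainly for restraint of BMP signaling, did not follow SMAD7. It was at 80.3 and 50.0 TPM in untreated and 55.0 and 32.6 TPM in treated wild-type cells, and at 77.4 and 42.3 TPM in untreated and 70.2 and 48.3 TPM in treated RA/KP cells. Replicate 1 exceeded replicate 2 in all 4 groups, so that untreated and treated libraries overlapped in both lines although the treated-to-untreated ratio was 0.685 and 0.651 in the wild-type replicates. In RA/KP cells the ratios were 0.907 and 1.14, on both sides of 1. By scaled coverage they were 0.676 and 0.710 in wild-type and 1.175 and 1.115 in RA/KP cells, where the fitted difference did not pass (0.19, adjusted p = 0.512 by limma).

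With the replicate as a block, the SMAD6 log2 difference was -0.57 (SE 0.16, 95% interval -0.94 to -0.20, adjusted p = 0.0943 by limma) in wild-type cells, which did not pass. It was 0.02 (SE 0.16, adjusted p = 0.942) in RA/KP cells. The difference between the responses was 0.59 (95% interval 0.07 to 1.12, adjusted p = 0.881). The wild-type value passed once the trend with GC content was removed from each library (-0.51, adjusted p = 0.0398) and without untreated RA/KP replicate 1 (adjusted p = 0.0395) or 2 (adjusted p = 0.0382), neither of which is a wild-type library. Over the 12 alternatives that kept every library the SMAD6 adjusted p by limma ran from 0.0398 to 0.654, the highest without the replicate block. Over all 20 alternatives the log2 difference lay between -0.61 and -0.51.

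**Figure D2:**
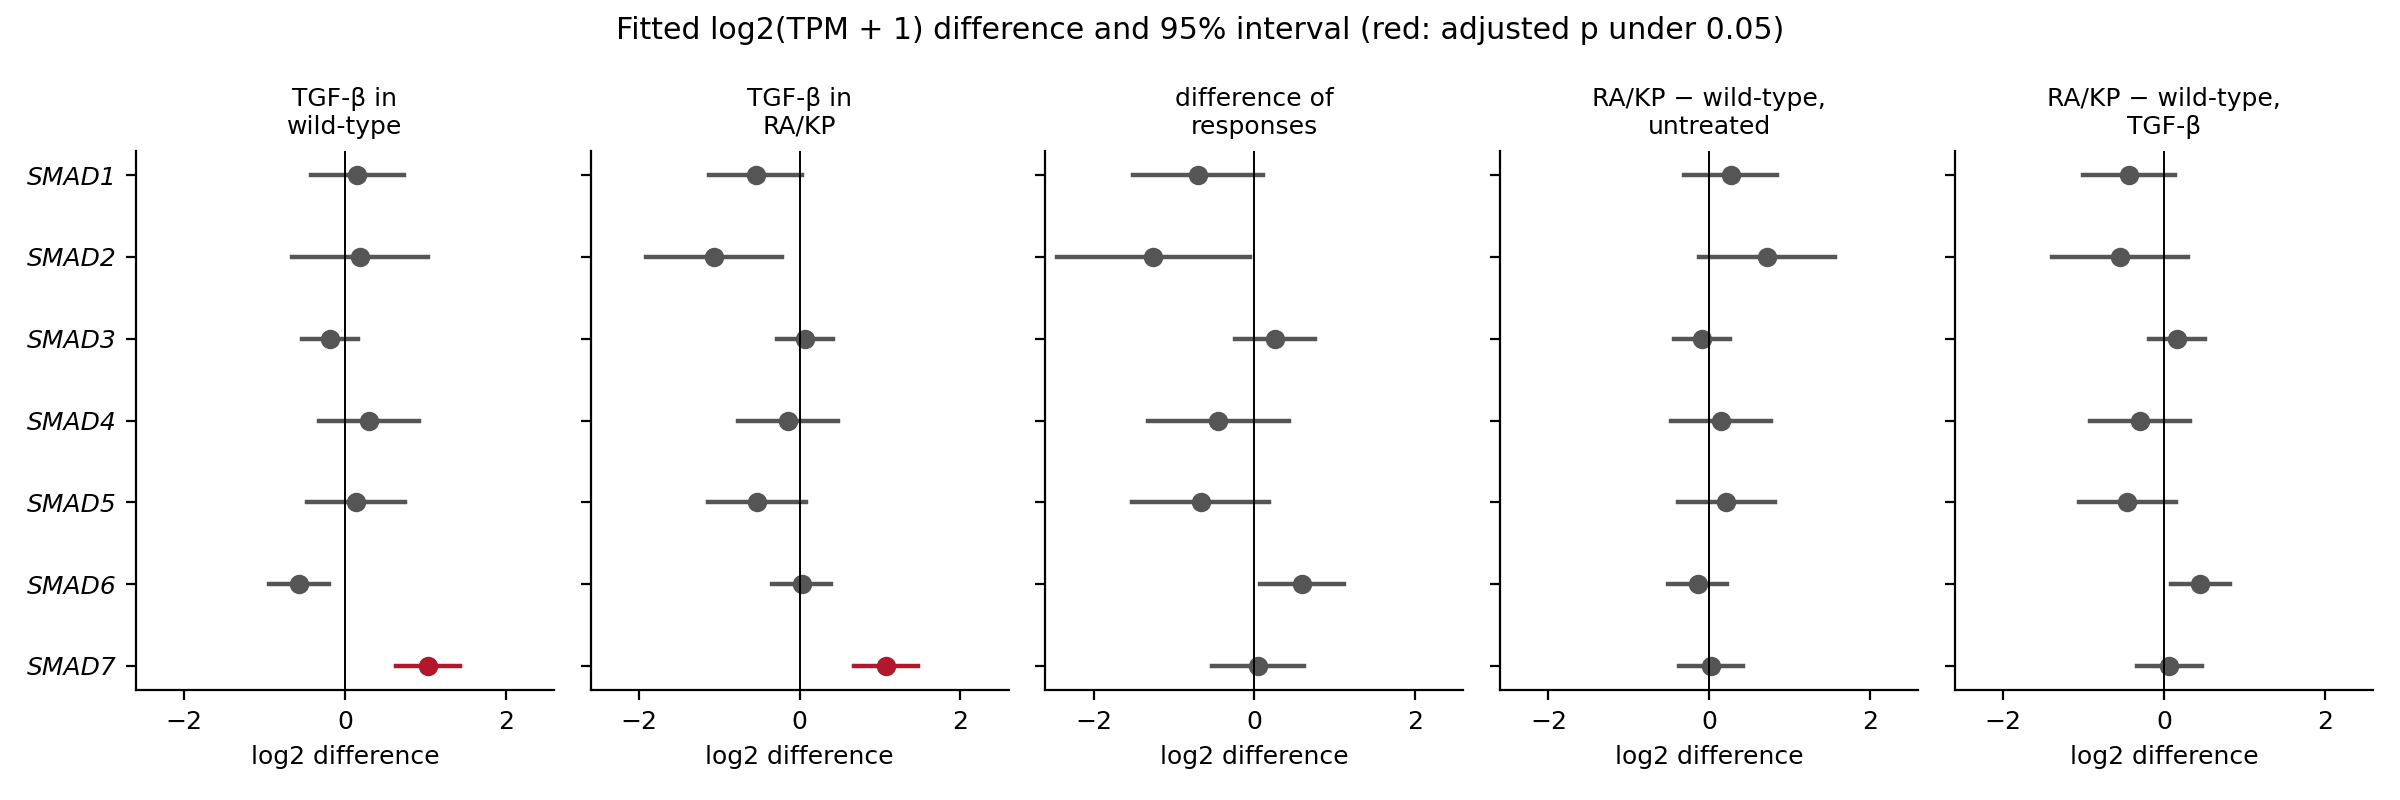
Fitted difference on the log2(TPM + 1) scale (x axis) for the 7 tested SMAD genes (rows) in 5 comparisons (panels). Dots are limma estimates from 8 libraries, bars 95% intervals, and red marks an adjusted p under 0.05. SMAD7 is red in both response panels (1.03 and 1.08) and no gene is red in the other 3 panels.

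No member was called by limma in a comparison between the lines. For the difference of responses 0 of 7 passed, where 0.0228% of all tested genes passed. An unadjusted p under 0.05 was reached by 2 of the 7 (SMAD2 and SMAD6) and by 4.29% of all tested genes. For untreated cells 0 of 7 passed, where 0.0152% of all tested genes passed. An unadjusted p under 0.05 was reached by 0 of the 7 and by 2.5% of all tested genes. For treated cells 0 of 7 passed, where 0.00761% of all tested genes passed. An unadjusted p under 0.05 was reached by 1 of the 7 (SMAD6, 0.45, SE 0.16, adjusted p = 0.639 by limma) and by 7.4% of all tested genes. Averaged over both treatments 0 of 7 passed, where again 0.00761% of all tested genes passed. An unadjusted p under 0.05 was reached by 0 of the 7 and by 4.57% of all tested genes. With so few calls among all genes, the absence of members among them says little about the members.

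The median log2 difference with TGF-β over the 7 tested members was 0.15 in wild-type cells, where it was -0.06 over all tested genes. In RA/KP cells it was -0.15, and -0.10 over all tested genes. Of the 7 members 5 had a positive fitted difference in wild-type and 3 in RA/KP cells, and all but SMAD7 failed the test. SMAD1, SMAD2, SMAD4 and SMAD5 each had a positive value in the first and a negative one in the second line, with a difference between responses of -0.70, -1.26, -0.45 and -0.67 on the log2 scale and an adjusted p of 0.881 or 0.883. These members have 37.0 to 41.1% GC, while SMAD3, SMAD6 and SMAD7 have 51.1, 58.9 and 57.1%. The correlation of library deviations with GC content was 0.194 and -0.65 in untreated RA/KP replicates 1 and 2. It was 0.374 and 0.495 in the treated ones. A link between the signs of the responses and GC content was not tested. After removal of the GC trend from each library the 4 differences between responses were -0.39, -0.96, -0.18 and -0.32 by limma, and none passed (adjusted p = 0.930 to 0.960).

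**Figure D3:**
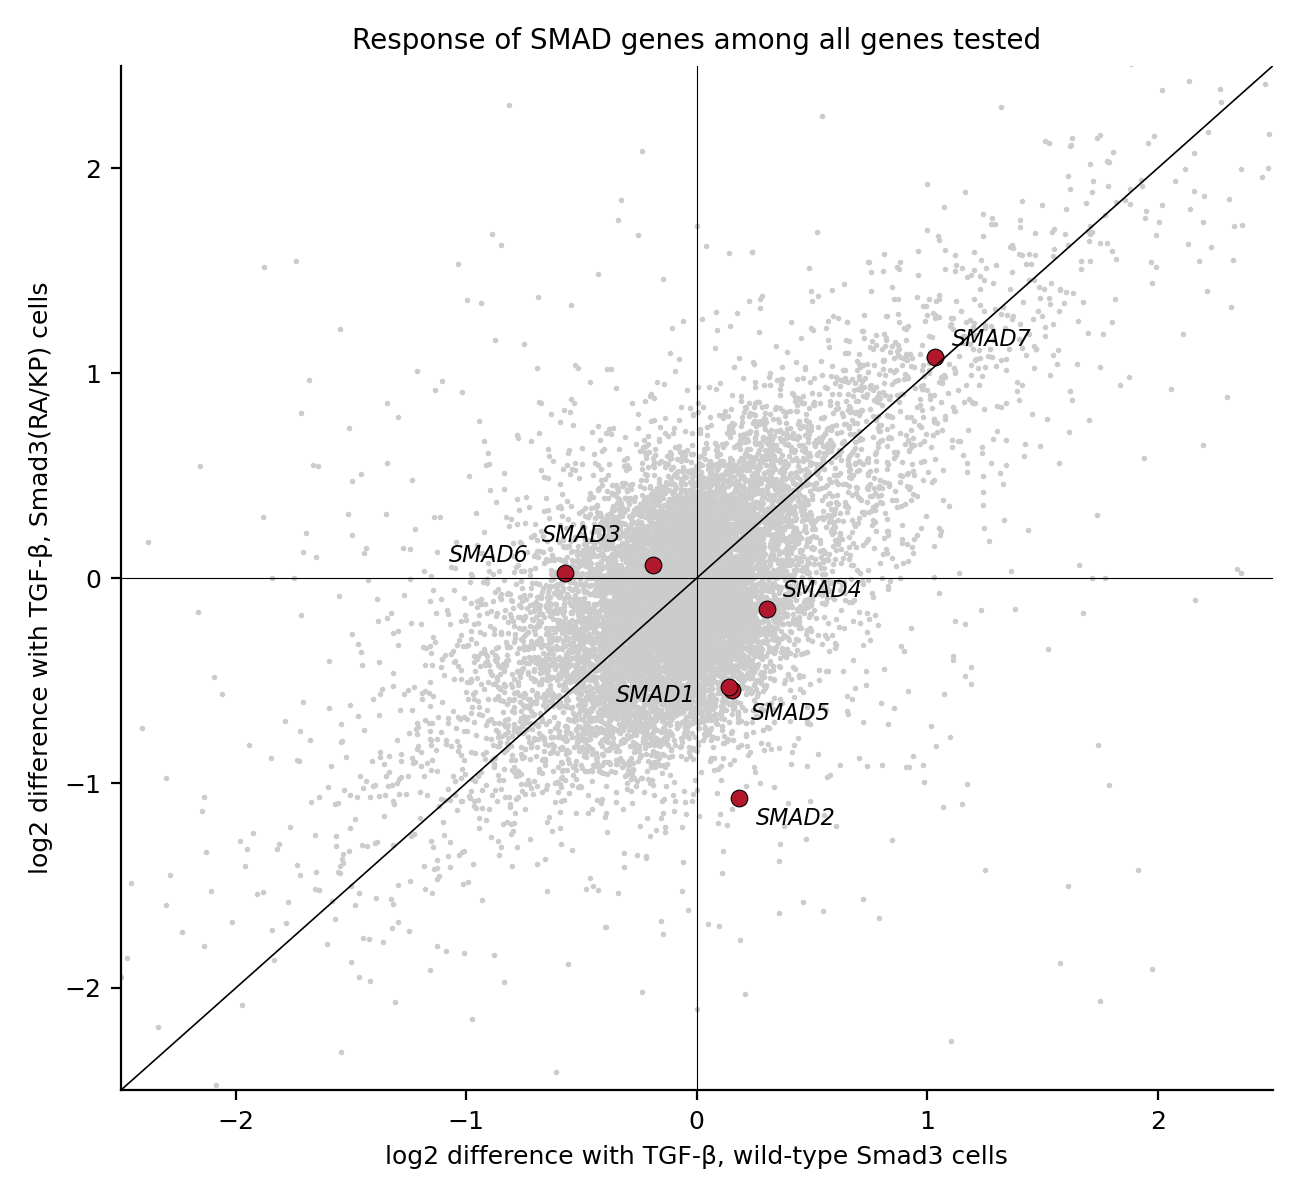
Log2 difference with TGF-β in wild-type cells (x axis) against that in RA/KP cells (y axis), both on the log2(TPM + 1) scale, with the diagonal of equal response. Red points are the 7 tested SMAD genes and grey points the other tested genes, of which 71 lie beyond the axis limits of 2.5. SMAD7 lies near the diagonal at 1.03 and 1.08, and SMAD6 at -0.57 and 0.02.

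By TPM, a level per transcript length, the order within the family was SMAD3, SMAD6, SMAD7 and then the rest in every group. SMAD3 took 54.7 to 68.6% of the summed TPM of the family, SMAD6 12.6 to 29.4% and SMAD7 5.38 to 13.03%. These 3 genes did not overlap with each other within any group. The SMAD3 total takes in the lentiviral cDNA, so its rank and share do not describe unmodified A549 cells. SMAD1, SMAD2, SMAD4 and SMAD5 followed at group means of 3.84 to 10.3 TPM, and neighbours in that stretch overlapped in the wild-type groups. The ratio of SMAD6 to SMAD7 by TPM went from 5.17 to 1.70 in replicate 1 and from 3.42 to 1.04 in replicate 2 of wild-type cells with TGF-β, and from 5.04 to 1.92 and from 2.76 to 1.58 in RA/KP cells. It fell in all 4 treated-to-untreated pairs.

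The lead of SMAD3 shrank when levels were read from the coverage of the whole record, an alternative chosen after the data were seen. On that scale, per 1000000, SMAD3 averaged 26.4 and SMAD6 24.3 over the 8 libraries, and their libraries overlapped in both untreated groups and in treated RA/KP cells, where the mean of SMAD6 (27.9) lay above that of SMAD3 (27.2). SMAD7 had the highest mean in both treated groups, at 31.5 ± 1.79 (SD, n = 2) in wild-type and 34.1 ± 2.01 (SD, n = 2) in RA/KP cells, where its libraries overlapped with those of SMAD6. SMAD1 fell from a mean of 5.11 TPM to 0.523 on the coverage scale, the lowest of the 7 members above 0. The ratio of coverage to FPKM was 0.135 for SMAD3 and 0.0860 for SMAD1, and constant for each over all 8 libraries. It was lower than that of SMAD3 in 4.36 to 4.46% of symbols, and lower than that of SMAD1 in 2.27 to 2.43%. For both genes the coverage level is thus TPM times a fixed factor, apart from the scaling of each library. It is not an independent reading of their abundance, and which scale is nearer to it was not tested. The SMAD7 response was called on this scale as well (1.09, adjusted p = 0.0112 in wild-type, and 1.15, adjusted p = 0.00970 in RA/KP cells by limma).

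**Figure D4:**
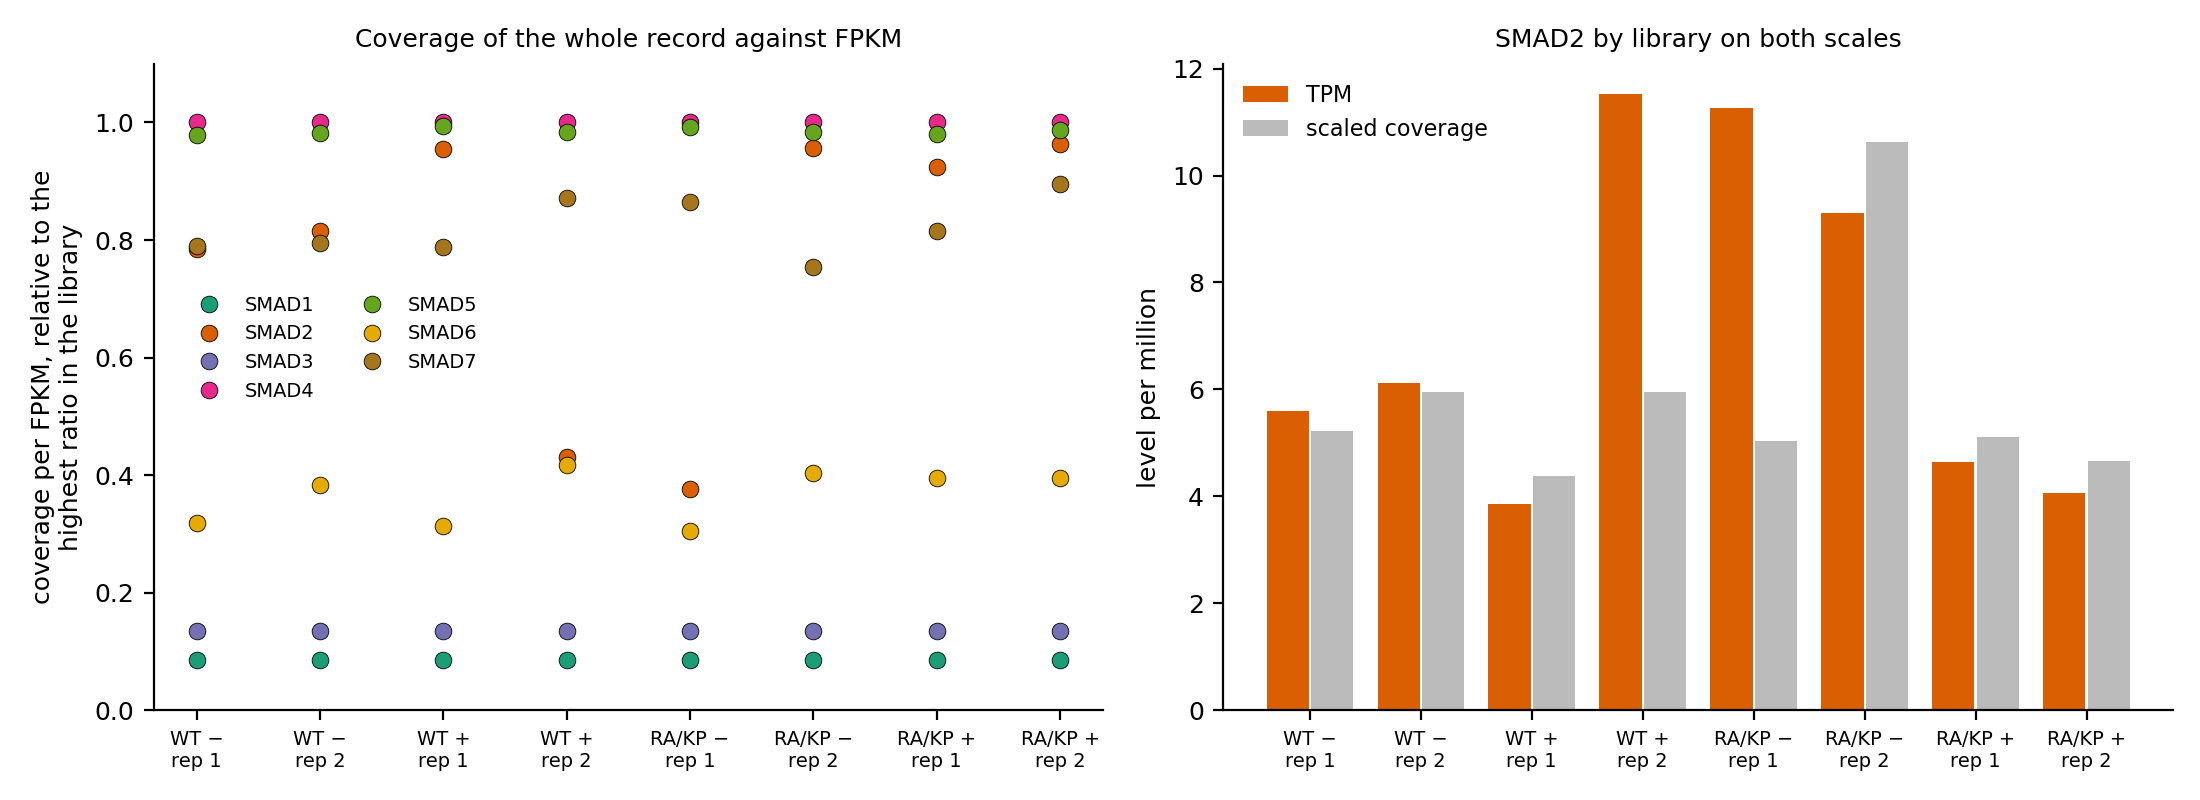
Left, ratio of coverage to FPKM relative to the highest ratio in the library (y axis, linear from 0) for 7 SMAD genes in the 8 libraries (x axis, − untreated, + TGF-β). Right, SMAD2 level per 1000000 by TPM and by scaled coverage in the same libraries, 1 bar per library. The ratio is flat for SMAD1 (0.0860) and SMAD3 (0.135), and drops for SMAD2 in the libraries where its TPM stands at 11.3 and 11.5.

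Antisense records overlap some members, and the counting is not stated to use strand. LOC101927681, opposite SMAD1, was at 0.0507 to 1.24 TPM, SMAD1-AS2 was listed at 0 in all libraries, and SMAD5-AS1, opposite SMAD5, was at 0 in 5 libraries and at most 0.440 TPM. LOC101927681 overlaps SMAD1 by 1392 bases and SMAD5-AS1 overlaps SMAD5 by 2044 bases. Within those stretches, reads of a member and of its antisense partner may not have been told apart.

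The SMAD7 and SMAD6 promoters are shown because SMAD7 was the member that passed and SMAD6 its inhibitory counterpart that did not. The windows are the 250 bases before the first RefSeq start of each gene (GRCh38.p14), 5′ to 3′ on the gene's strand, at chr18:48950966-48951215 (minus strand) and chr15:66701986-66702235 (plus strand). The searched motifs were GTCTAGAC, the palindromic Smad-binding element, and its shorter relative CAGAC on both strands, which also reads GTCTG, and the longer motif contains neither. Capitals mark matches. The last line is a stretch of 40 bases around the one GTCTAGAC found in 2000 bases upstream of SMAD7, at chr18:48952202-48952241 and 1260 bases from the start.
SMAD7: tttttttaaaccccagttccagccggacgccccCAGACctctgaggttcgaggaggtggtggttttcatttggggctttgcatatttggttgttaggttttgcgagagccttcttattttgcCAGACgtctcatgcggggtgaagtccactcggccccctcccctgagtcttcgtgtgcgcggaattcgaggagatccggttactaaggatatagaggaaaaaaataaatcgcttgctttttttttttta
SMAD6: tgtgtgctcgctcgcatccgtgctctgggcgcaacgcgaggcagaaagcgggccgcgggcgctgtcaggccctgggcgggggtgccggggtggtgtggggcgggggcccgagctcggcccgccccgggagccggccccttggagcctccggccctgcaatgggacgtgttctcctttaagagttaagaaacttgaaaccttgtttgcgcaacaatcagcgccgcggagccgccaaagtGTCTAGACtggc
SMAD7 upstream: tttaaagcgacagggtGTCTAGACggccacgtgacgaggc

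SMAD7 held CAGAC at 217 and 128 bases before its start. SMAD6 held GTCTAGAC 12 bases before its start and no CAGAC. In all 35116 RefSeq windows of 300 bases, GTCTAGAC occurred in 71 (0.202%) and CAGAC on either strand in 45.3%. In the same 2000 bases upstream GTCTAGAC occurred 1 time for SMAD7, 1 time for SMAD6 and 0 times for SMAD3. A match in letters is no evidence of binding in these cells.

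Of 61 genes in lists of receptors, anchors and transport factors, co-repressors, co-activators, ubiquitin enzymes, phosphatases and kinases, and readouts of both branches, 57 were tested. In wild-type cells 5 rose and 3 fell with TGF-β (8 of 57, against 4.68% of all tested genes), and in RA/KP cells 7 rose and 1 fell (8 of 57, against 4.98%). The lists hold known TGF-β targets and were chosen with earlier results known, so their share is a description. No gene of the lists was called in the difference of responses or between the lines.

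Among the 10 tested receptors, the receptors that act upstream of Smad2 and Smad3 moved apart. TGFBR1, the type I receptor that phosphorylates them, was at 5.74 to 8.96 TPM in the 4 untreated and 18.6 to 25.3 TPM in the 4 treated libraries, a log2 difference of 1.81 (adjusted p = 0.00318 by limma) in wild-type and 1.36 (adjusted p = 0.0131) in RA/KP cells. TGFBR2, the type II receptor that activates it, went from 31.8 to 35.7 TPM down to 13.5 to 22.7 TPM, with log2 differences of -1.02 (adjusted p = 0.0294) and -0.98 (adjusted p = 0.0351). The ranges of treated and untreated libraries did not overlap for either gene. TGFBR3, the co-receptor betaglycan, was low throughout, at 1.82 to 2.36 TPM in untreated and 0.256 to 0.809 TPM in treated libraries. It fell in wild-type cells (-1.25, adjusted p = 0.0413) and did not pass in RA/KP cells (-0.97, adjusted p = 0.0966). The difference between its responses was 0.29 (adjusted p = 0.905 by limma), which did not pass. BMPR2, a type II receptor for BMPs, passed in neither line and passed as higher for the average over the lines (0.85, adjusted p = 0.0173).

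Among regulators of the Smads, SMURF2, a ubiquitin ligase that works with Smad7 on the receptors, rose by 1.36 (adjusted p = 0.00852) and 1.12 (adjusted p = 0.0205) on the log2 scale by limma, from 6.83 to 15.3 TPM in untreated to 18.5 to 35.2 TPM in treated libraries. PMEPA1, which holds Smad2 and Smad3 away from the receptor, rose by 1.71 (adjusted p = 0.000753) and 1.68 (adjusted p = 0.000832). SKIL, the co-repressor SnoN, rose in wild-type cells (1.49, adjusted p = 0.0312) and did not pass in RA/KP cells (0.64, adjusted p = 0.270). The interaction for SKIL was -0.84 with an adjusted p of 0.881. HGS, an endosomal partner of the Smad anchor ZFYVE9, and MED15, a Mediator subunit that Smads contact, passed in RA/KP cells, at 0.72 (adjusted p = 0.0458) and 1.00 (adjusted p = 0.0157). In wild-type cells they were at 0.36 (adjusted p = 0.343) and 0.74 (adjusted p = 0.0567), and their differences between the responses did not pass (adjusted p = 0.881 and 0.884). No phosphatase or kinase of the 9 listed passed in either line, and CTDSPL passed as lower for the average over the lines (-0.73, adjusted p = 0.0303). RUNX1, a transcription factor that binds Smads (0.85, adjusted p = 0.0191), and SMURF1, the ubiquitin ligase related to SMURF2 (0.54, adjusted p = 0.0372), likewise passed in neither line and passed as higher for that average.

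The 3 readouts of Smad2 and Smad3 (JUNB, PMEPA1 and SKIL) all rose in wild-type cells, and 2 of them, JUNB and PMEPA1, rose in RA/KP cells. JUNB, which encodes an AP-1 subunit, gave log2 differences of 2.69 (adjusted p = 0.00134 by limma) and 3.03 (adjusted p = 0.000832). Of the BMP-branch readouts, which encode inhibitors of bHLH factors, ID2 fell in wild-type cells (-0.94, adjusted p = 0.0174) and did not pass in RA/KP cells (-0.63, adjusted p = 0.0835). ID3 passed as higher in RA/KP cells (1.04, adjusted p = 0.0455) and not in wild-type cells (0.72, adjusted p = 0.152), ID1 passed in neither, and ID4 was listed at 0. SMAD1 and SMAD5, whose proteins drive these genes when active, had no called change in transcript level. The activity of these proteins was not measured in the libraries, and what moved the ID genes was not tested.

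The genes whose pattern was most like that of a member were found by the root mean square difference of centred log2(TPM + 1) over the 8 libraries, among 9453 genes, with no test. For SMAD7 they were TIMP2 (0.0671), NDST1 (0.0910) and TPST1 (0.0996). For SMAD3 they were SRSF1 (0.0494), DNAJC11 (0.0564) and IPO4 (0.0598). For SMAD6 they were S100A4 (0.127), HSPA2 (0.156) and SLC25A45 (0.157), at larger distances than for the others.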

How the data were processed

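RNA of the 8 libraries was sequenced after poly(A) selection with an Ion Total RNA-Seq kit. The submitters' processing notes name HISAT2 2.1.0 and StringTie 2.0.4 on GRCh38. For the annotation used, the version is not stated in the labels or the methods. The tables deposited by the authors hold coverage, FPKM and TPM per gene record. Records of one symbol were summed. The authors' TPM sums to 1000000 in each library, the deposited FPKM served as an alternative, and the deposited coverage gave depth (its ratio to FPKM) and the whole-record scale. Mapped bases were 1.15 to 1.81 Gb.

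A mean of at least 1 TPM was required, and genes were tested with limma 3.58.1 (R 4.3.3) on log2(TPM + 1), with 4 groups, the replicate number as a block, a trend of variance with the mean, and p-values adjusted by Benjamini-Hochberg at 0.05 over 13141 genes (3 residual and 5.90 prior degrees of freedom). Fold changes on this scale understate those of low genes. The labels and the methods do not state that equal replicate numbers mark the same experiment in both lines. p-values measure the spread between these libraries. The steps were tested on simulated data. Python 3.11.15 and matplotlib 3.10.9 drew the figures.

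The members and lists were chosen with earlier results of these data known. From each list up to 4 genes passing in any comparison were named by smallest p, otherwise up to 2 said not to have passed, and 1 listed gene is not reported here. Alternatives were 2 other pseudocounts, no filter or a mean of at least 5 TPM, FPKM, median-ratio and quantile scaling, the fit with no block or with 1 block per line, the fit with no trend, removal of the GC trend and leaving out each library. Reading levels from coverage was added after seeing the data. GC content came from GENCODE transcripts, for 94.4% of tested genes.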

Additional observations from a re-analysis of the deposited data

Results flagged for a closer look

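The treated-to-untreated TPM ratio of SMAD5 lay on opposite sides of 1 in the lines, at 1.19 and 1.05 in the wild-type replicates and 0.792 and 0.527 in the Smad3(RA/KP) replicates, and the response passed in neither line (limma adjusted p = 0.893 and 0.280). In the limma test of that difference, the log2 value was -0.67 (SE 0.38, adjusted p = 0.881), which did not pass. The wild-type value was -0.088 without treated wild-type replicate 1, and the Smad3(RA/KP) value was -0.13 with the GC trend removed.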

How the results depend on the processing

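SMAD7 rose under every alternative, and its call averaged over both lines held in all 20 (adjusted p = 0.000354 to 0.0147). In each line it was called in all 12 alternatives that kept every library (limma adjusted p = 0.00307 to 0.0402 in wild-type and 0.00543 to 0.0388 in Smad3(RA/KP) cells). Leaving out 1 library, where the lone remaining sample is assumed to vary like the others, gave 0 to 2 members called in wild-type and 0 to 1 in Smad3(RA/KP) cells. Removing the GC trend gave 2 members called in wild-type cells and 2 for the average over the lines, SMAD6 being added. Same-numbered libraries deviated together at correlations of 0.221 to 0.332 in 5 of 6 pairs of groups, and at 0.0484 between the untreated and treated Smad3(RA/KP) groups, the one pair under 0.1. Without the replicate block 277 and 269 genes were called in the lines in place of 615 and 655, and SMAD7 was called in both. Without the block the difference of responses gave 2 genes and the average over the lines 870. Over all alternatives that kept every library, counts ran from 277 to 1220 and from 242 to 954, and without 1 library from 106 to 1011 and from 163 to 2622.

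Members outside the threshold changed sign in places, and the causes were not tested. By coverage SMAD2 was -0.11 in wild-type cells. After GC removal, in Smad3(RA/KP) cells SMAD4 was 0.18 and SMAD6 -0.15, SMAD7 was -0.15 for the difference of responses and -0.074 for the treated lines, and the averages over lines were 0.0096 for SMAD1 and 0.025 for SMAD5. By FPKM SMAD6 was -0.016 in Smad3(RA/KP) cells. Under median-ratio scaling SMAD7 was -0.0066 between untreated lines and SMAD3 0.020 averaged over lines, and under quantile normalization SMAD7 was -0.029 between untreated lines. Without 1 library, log2 values in wild-type cells ranged from -0.051 to 0.36 for SMAD1, -0.55 to 0.92 for SMAD2 and -0.088 to 0.37 for SMAD5. In Smad3(RA/KP) cells they ranged from -0.072 to 0.20 for SMAD3, -0.56 to 0.26 for SMAD4 and -0.088 to 0.14 for SMAD6, and for the difference of responses from -0.059 to 0.15 for SMAD7. Between untreated lines they ranged from -0.26 to 0.56 for SMAD4, -0.13 to 0.56 for SMAD5 and -0.034 to 0.083 for SMAD7, and between treated lines from -1.28 to 0.19 for SMAD2 and -0.035 to 0.17 for SMAD7. Averaged over lines, the response ranged from -0.13 to 0.0073 for SMAD3 and -0.13 to 0.28 for SMAD4. Averaged over treatments, the line difference ranged from -0.21 to 0.037 for SMAD1, -0.28 to 0.45 for SMAD2, -0.034 to 0.10 for SMAD3, -0.28 to 0.13 for SMAD4, -0.30 to 0.051 for SMAD5 and -0.0050 to 0.10 for SMAD7. The SMAD3 share of the family averaged 60.9% by TPM and 28.1% by coverage. FPKM and median-ratio scaling leave such shares as they are. Read depth per gene is unknown.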
